A study of Homo sapiens with 95 samples.

Results

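The S100 genes encode small calcium-binding proteins, and 10 of the 23895 listed genes were followed here: S100A2, S100A4, S100A6, S100A7, S100A8, S100A9, S100A10, S100A11, S100A14 and S100A16. They were chosen by symbol, and selected on measured levels in these wells: earlier results had S100A8 and S100A9 differing widely between cell populations while other members were abundant in all of them, so the differences between populations under vehicle are described without a test. The cells were AALE, an immortalized line of human bronchial epithelium. 3′ digital gene expression (3′DGE), which reads the 3′ end of each polyadenylated transcript and counts each unique molecular identifier (UMI) once, was applied to 95 wells. Cells made to overexpress PIK3CA, NRG1, FGFR1 or NRF2 were set against cells with the HcRed control construct. CRISPR knockouts of CDKN2A and FAT1 were set against GFP cells, which received the Cas9-EGFP plasmid with no guide. Each of the 8 populations received DMSO (the vehicle), cigarette smoke condensate (CSC, 24 µg/ml), benzo[a]pyrene (BaP, 173 µM) or the tobacco nitrosamine NNK (490 µM) for a time not given in the sources used here. The sources do not say whether a population came from a single clone. Comparisons used the 82 wells with a 1-digit replicate number, at most 3 wells per population and chemical, and all levels are counts per 1e+06 UMI counts of the well (CPM).

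S100 proteins carry paired EF-hand motifs, bind calcium, and mostly act as dimers that change shape on calcium and dock onto a partner. S100A8 and S100A9 form calprotectin, a metal-sequestering protein of neutrophils and of stressed or squamous epithelium that signals through the receptors TLR4 and AGER once released. S100A7 (psoriasin) is likewise known from inflamed squamous epithelium, whereas S100A10 and S100A11 partner annexins, S100A6 (calcyclin) binds CACYBP, S100A4 binds non-muscle myosin, and S100A2 is typical of basal epithelial cells.

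The members lie in the S100 cluster of chromosome 1 (hg19). Within 259133 bases are S100A9 (153330330 to 153333499), S100A8 (153362508 to 153363549), S100A7 (153430220 to 153433127), S100A6 (153507075 to 153508720), S100A4 (153516089 to 153522612), S100A2 (153533584 to 153540366), S100A16 (153579362 to 153585621) and S100A14 (153586731 to 153589462). S100A10 (151955391 to 151966335) and S100A11 (152004982 to 152020383) lie apart, with 1309946 bases between S100A11 and S100A9. S100A9 is on the plus strand and the other 9 members are on the minus strand.

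The 80 bases before the RefSeq start site are shown for the 4 members that hold the letters TATAAA on the gene strand within 50 bases of it, and for the 2 annexin partners, which do not. Sequences are from the RefSeq promoter table and were matched to hg19. Each reads 5′ to 3′ on the gene's strand, and capitals mark TATAAA.
S100A8 (chr1:153363550-153363629, minus strand): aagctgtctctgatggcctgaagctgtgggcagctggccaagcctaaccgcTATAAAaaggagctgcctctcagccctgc
S100A9 (chr1:153330250-153330329, plus strand): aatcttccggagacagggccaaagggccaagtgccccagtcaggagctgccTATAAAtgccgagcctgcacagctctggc
S100A7 (chr1:153433128-153433207, minus strand): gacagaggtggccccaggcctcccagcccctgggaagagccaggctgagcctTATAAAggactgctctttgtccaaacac
S100A4 (chr1:153518283-153518362, minus strand): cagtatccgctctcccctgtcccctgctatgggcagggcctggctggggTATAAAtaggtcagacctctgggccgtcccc
S100A10 (chr1:151966336-151966415, minus strand): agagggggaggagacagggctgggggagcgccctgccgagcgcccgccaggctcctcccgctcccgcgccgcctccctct
S100A11 (chr1:152009481-152009560, minus strand): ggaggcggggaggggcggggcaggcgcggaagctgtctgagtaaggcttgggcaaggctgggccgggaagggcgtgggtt

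The TATAAA letters began 29 bases before the start in S100A8 and S100A9, 28 in S100A7 and 31 in S100A4. Of the 35116 promoters in the table, 2.63% held them in the same window. All 10 members were matched in the table, and 3 of them have more than 1 listed start, of which the one at the GENCODE main transcript was taken. Other motifs were searched on both strands in the 250 bases before the start. TGANTCA, the AP-1 site, occurred in S100A2 alone of the members and in 6.57% of promoters. TGACNNNGC, the antioxidant response element bound by NRF2, occurred in S100A14 alone, at 2 places, and in 10.9% of promoters. GCGTG, the core of the aryl hydrocarbon receptor site, occurred in S100A2, S100A6, S100A10 and S100A11 and in 32.2% of promoters. These are matches of letters and no binding was measured.

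The 1-digit wells had total counts from 692446 to 1895735. Every well had counts of 9 members, down to 1 count of S100A9, while S100A7 was at 0 in 24 of the 82 wells. In all 1-digit wells S100A6 made up 45.0% of the counts of the 10 members, S100A2 29.1%, S100A10 12.1% and S100A11 9.94%, with 1 UMI per captured 3′ end and so no scaling for length. S100A8 held 1.65%, S100A16 1.01%, S100A14 0.672%, S100A4 0.347%, S100A9 0.0865% and S100A7 0.028%. Together the members took 1.79% of all counts in HcRed cells under DMSO (from 1.73% to 1.87% over 3 wells), the highest share of the 8 populations, and 1.14% in FAT1 cells (from 1.12% to 1.15%), the lowest. The well NRG1 NNK replicate 2 stood apart: without it, 2230 genes and not 819 were called under NNK, so values that rest on it are given with and without it. Basal airway markers were present, with a summed level of KRT5, KRT14, KRT15, KRT17, TP63, ITGA6, ITGB4 and NGFR between 342 and 949 CPM in the 24 DMSO wells. This sum was between 826 and 861 CPM in HcRed wells and between 800 and 949 CPM in NRF2 wells, against 342 to 684 CPM elsewhere, without overlap. That is the same division of populations as S100A8 shows below, and its part in the levels of the members was not tested. Secretory markers reached at most 0.662 CPM and ciliated markers 3.52 CPM in any DMSO well. The plate held each chemical in its own rows and each population in its own columns of those rows, with HcRed and NRF2 cells in the same columns, so chemical and population cannot be told apart from plate position.

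S100A8, the calprotectin subunit counted more often, was high in HcRed and NRF2 cells and low in the other 6 populations. Under DMSO the HcRed wells held 727, 694 and 647 CPM and the NRF2 wells 925, 877 and 924 CPM. GFP wells, the other control, held 41.1, 49.0 and 56.4 CPM. The 2 control populations did not overlap, at means of 689 ± 40.6 and 48.9 ± 7.66 CPM (SD, n = 3 each), a ratio of 14.1.

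Among the other populations S100A8 held 119, 111 and 123 CPM in CDKN2A wells and 82.7, 73.3 and 87.1 CPM in NRG1 wells. FGFR1 wells held 61.6, 59.4 and 50.5 CPM and PIK3CA wells 53.7, 38.9 and 45.6 CPM. FAT1 wells were lowest, at 22.9, 28.3 and 18.5 CPM. The order was thus NRF2, HcRed, CDKN2A, NRG1, FGFR1, GFP, PIK3CA and FAT1. FGFR1 overlapped GFP, and GFP overlapped PIK3CA, while each other pair of neighbours did not overlap. The NRF2 mean was 39.1 times the FAT1 mean. Of the 5165 genes with a mean of at least 10 CPM under DMSO, 0.639% had a ratio of 10 or more between their highest and lowest population, and the median ratio was 1.74. The division held under the chemicals too: over all chemicals and all 95 wells, its lowest value in 24 HcRed and NRF2 wells was 627 CPM and its highest in the other 71 wells was 153 CPM.

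S100A9, the partner subunit, followed the same order at the top at lower counts. HcRed wells under DMSO held 24.0, 25.7 and 23.2 CPM and NRF2 wells 28.3, 36.1 and 38.7 CPM. CDKN2A wells came next, at 15.6, 9.36 and 6.99 CPM, and overlapped NRG1 wells at 10.99, 6.48 and 5.48 CPM. FGFR1 wells held from 4.14 to 8.38 CPM and PIK3CA wells from 3.04 to 7.29 CPM. FAT1 wells held 2.54, 1.13 and 2.31 CPM, and each GFP well held 1 count, between 0.73 and 0.84 CPM. In the order of means, CDKN2A overlapped NRG1, NRG1 overlapped FGFR1 and FGFR1 overlapped PIK3CA, and the other neighbours did not overlap. The summed counts of NRF2 and GFP cells, 144 and 3, gave a ratio of 43.4 with a 95% interval from 14.5 to 213 (exact binomial method, counting error only). Over all 1-digit wells of the chemicals both populations share, the ratio of means was 11.2, below that interval.

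Both subunits were related in level beyond this division, though not they alone. Across the 23 groups of the 6 low populations, group means of log2 CPM of S100A8 and S100A9 had a Pearson r of 0.81. In the same groups S100A8 had an r of 0.844 with COX5B, 0.77 with S100A16 and 0.64 with S100A2. With the other members its r was 0.45 or less. Groups of a population share a plate position and S100A9 had few counts in them. Counts of S100A8 per count of S100A9, summed over chemicals, were 24.7 in HcRed and 23.1 in NRF2 cells. They were 15.6 in GFP cells and between 8.03 (FAT1) and 10.9 (FGFR1) in the remaining 5 populations. The GFP value was raised by its DMSO wells, at 61.7 from 3 counts of S100A9, and was 12.1 in its exposed wells, where the remaining 5 held between 7.33 and 12.2. Captured 3′ ends of 2 genes can differ in efficiency, so the ratio is read between populations and not as a stoichiometry.

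**Figure D1:**
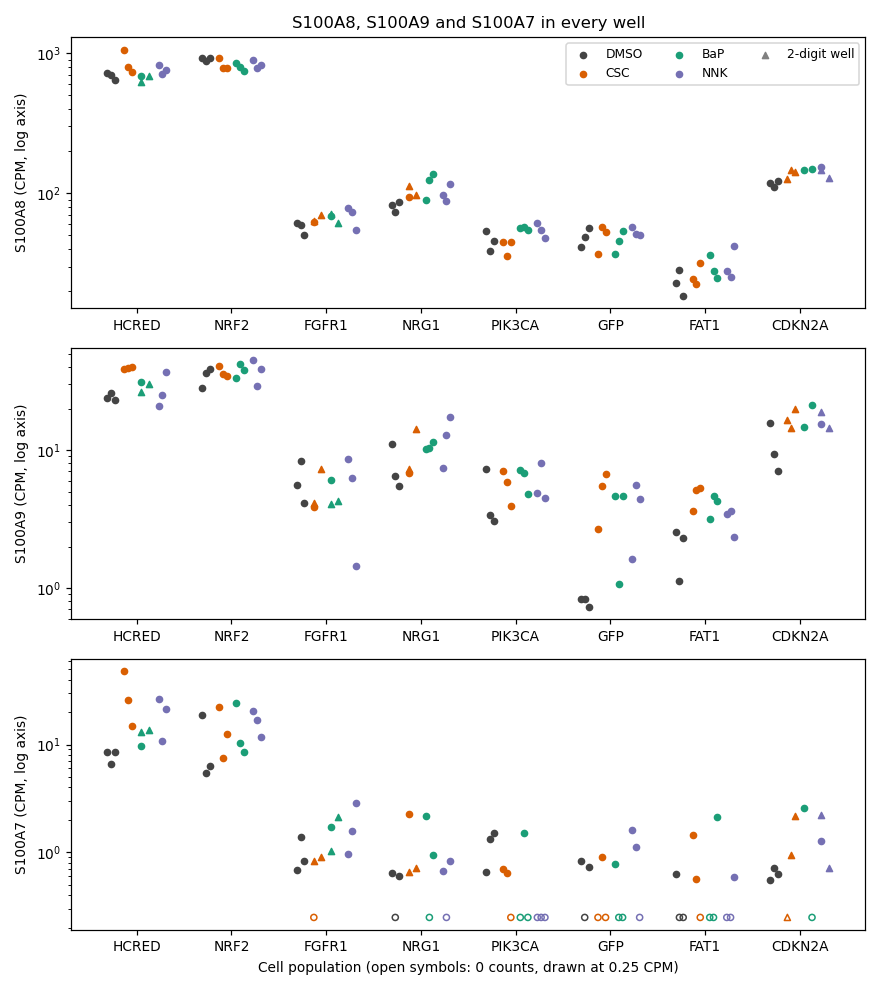
CPM of S100A8, S100A9 and S100A7 in all 95 wells on log axes, by population (x axis) and chemical (colour), with circles for 1-digit and triangles for 2-digit wells and open symbols for wells with 0 counts. HcRed and NRF2 wells stand above all others for S100A8 and S100A7 under every chemical, and the highest S100A9 well of another population, at 21.3 CPM (CDKN2A under BaP), lies just above the lowest HcRed well, at 20.8 CPM (NNK).

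**Figure D2:**
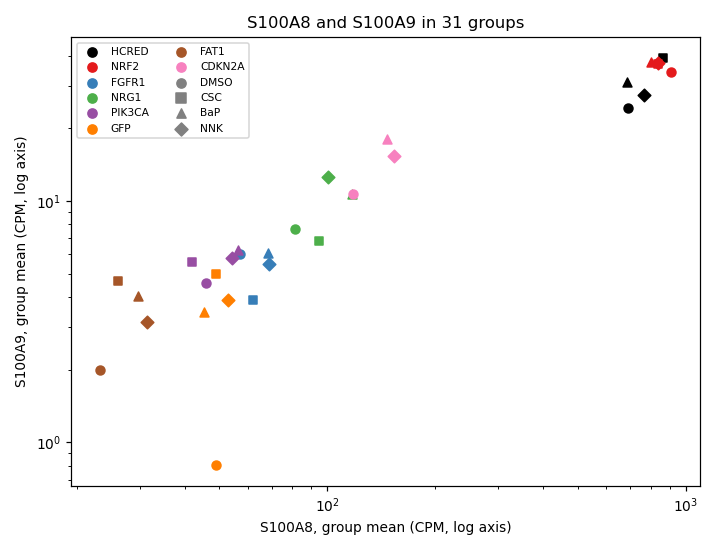
Group mean CPM of S100A8 (x axis) against S100A9 (y axis), both on log axes, for 31 groups of 1-digit wells, with colour for population and shape for chemical. HcRed and NRF2 groups form the upper right cluster, and GFP under DMSO is the lowest group for S100A9, at a mean of 0.80 CPM.

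S100A7 was divided between populations like the calprotectin genes. HcRed wells under DMSO held 8.56, 6.62 and 8.52 CPM, from 10, 9 and 11 counts, and NRF2 wells held 18.9, 5.44 and 6.34 CPM, from 24, 8 and 9 counts. In the other 6 populations no DMSO well had more than 2 counts. Over all chemicals the 24 HcRed and NRF2 wells held from 5.44 to 47.9 CPM and the other 71 wells at most 2.89 CPM. The near-identical copies S100A7A and S100A7L2 were at 0 counts in every well, and how reads of such copies were assigned is uncertain.

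Other family genes were counted for context. S100A12 (calgranulin C, known from neutrophils) averaged 17.3 CPM in NRF2 and 8.23 CPM in HcRed cells under DMSO and between 0.423 and 2.16 CPM elsewhere. S100P averaged 24.9 CPM in NRF2 and 11.7 CPM in HcRed cells and between 0.423 and 5.83 CPM elsewhere. S100A13 was abundant, with a mean of 796 CPM in CDKN2A cells and means between 384 and 469 CPM elsewhere, and S100A1, S100A7A, S100A7L2 and S100G had no count in any DMSO well.

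Myeloid cells are the usual source of S100A8 and S100A9, and their markers were low. In the 24 DMSO wells CSF3R, FCGR3B and TYROBP had no count, ITGAM was at 0 in 23 wells, PTPRC in 21 and FCER1G in 19. MPO was at 0 in 15 wells (at most 1.71 CPM), CD14 in 7 (at most 2.54 CPM) and LYZ in 1 (at most 7.7 CPM). The summed level of the 11 myeloid markers ran from 12.6 to 35.9 CPM over all DMSO wells. It was between 27.4 and 35.9 CPM in HcRed and NRF2 cells and between 12.6 and 32.5 CPM elsewhere, with CD68 (4.2 to 26.5 CPM) and S100A12 (0 to 19.0 CPM) as the highest contributors. The part of such cells in the levels was not tested. Of the listed receptors of calprotectin subunits, AGER was at 0 in 22, TLR4 in 20 and CD36 in 5 of the DMSO wells, whereas BSG (basigin) held between 43.3 and 98.0 CPM.

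The genes most like S100A8 in pattern were sought among genes with a mean of at least 10 CPM, by Pearson r of group mean log2 CPM over 31 groups. These groups form 2 clusters, so r over the 23 groups of the low populations is given beside it. The 5 genes were PI3 (elafin, a protease inhibitor of squamous epithelium; r = 0.889 and 0.329), RPL31 (0.853 and 0.549), KRTDAP (a keratinocyte differentiation gene; 0.845 and -0.246), KRT17 (0.844 and 0.272) and COX5B (0.767 and 0.844). PI3 averaged 193 CPM in HcRed and 212 CPM in NRF2 cells under DMSO and between 4.32 and 38.4 CPM elsewhere. KRTDAP averaged 52.9 and 65.8 CPM against 0.231 to 7.53 CPM elsewhere. For S100A9 the 5 genes were PI3 (0.809 and 0.173), RPL31 (0.792 and 0.376), TIMM8B (0.763 and 0.773), PTS (0.738 and 0.776) and C1D (0.737 and 0.705). RPL31 has many near-identical copies and its level is uncertain.

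The other 7 members were expressed in every population, within a narrower range. The ratio of the highest to the lowest population mean under DMSO was 1.52 for S100A10, 1.66 for S100A6, 1.79 for S100A16, 1.81 for S100A11, 2.13 for S100A14, 2.16 for S100A2 and 3.78 for S100A4. A ratio as large as that of S100A10 was reached by 73.7% of the 5165 genes, and one as large as that of S100A4 by 3.25%.

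S100A6 was highest in NRF2 cells, at 7626 ± 112 CPM (SD, n = 3), and overlapped HcRed cells at 7479 ± 342 CPM. NRG1 cells followed at 7000 ± 97.4 CPM. It was lowest in GFP cells, at 4590 ± 165 CPM, which overlapped FAT1 cells at 4935 ± 186 CPM. The control populations for overexpression and for CRISPR thus stood near opposite ends for this gene too.

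S100A2, whose product is found mostly in the nucleus, was highest in CDKN2A cells, with wells at 6849, 6966 and 6297 CPM, above all other populations. HcRed (5339 ± 356 CPM) and GFP cells (5330 ± 207 CPM) overlapped. FAT1 cells were lowest, with wells at 2906, 3212 and 3179 CPM. FAT1 thus lay below its own control without overlap, at a ratio of 0.581.

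The annexin partners S100A10 and S100A11 were both highest in GFP cells. S100A10 wells of GFP cells held 2466, 2596 and 2617 CPM against 2232, 2152 and 2200 CPM in HcRed cells. S100A11 wells of GFP cells held 2315, 2482 and 2445 CPM against 1753, 1734 and 1798 CPM in HcRed cells. Neither gene overlapped between the 2 controls. FAT1 cells were lowest for S100A10, at 1680 ± 48.8 CPM, and near the lowest for S100A11, at 1352 ± 37.1 CPM. Over the 31 groups the 2 genes had a Pearson r of 0.82, the highest for any pair outside S100A7, S100A8 and S100A9, and 0.87 in the 23 groups without HcRed and NRF2 cells.

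S100A14 was highest in NRF2 cells (131, 125 and 162 CPM), where it overlapped HcRed cells (118, 135 and 107 CPM), and lowest in GFP cells (68.8, 68.1 and 59.4 CPM), below every other population. S100A16 was highest in CDKN2A cells at 213 ± 24.3 CPM and lowest in FAT1 cells at 119 ± 4.56 CPM. Each neighbour in its order overlapped the next except FGFR1 and FAT1. S100A4 was highest in CDKN2A wells (79.8, 90.0 and 98.6 CPM) and lowest in PIK3CA wells (17.2, 24.8 and 28.9 CPM). Its PIK3CA wells overlapped no other population, whereas 1 FAT1 well reached 88.9 CPM and the others held 41.3 and 60.2 CPM.

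**Figure D3:**
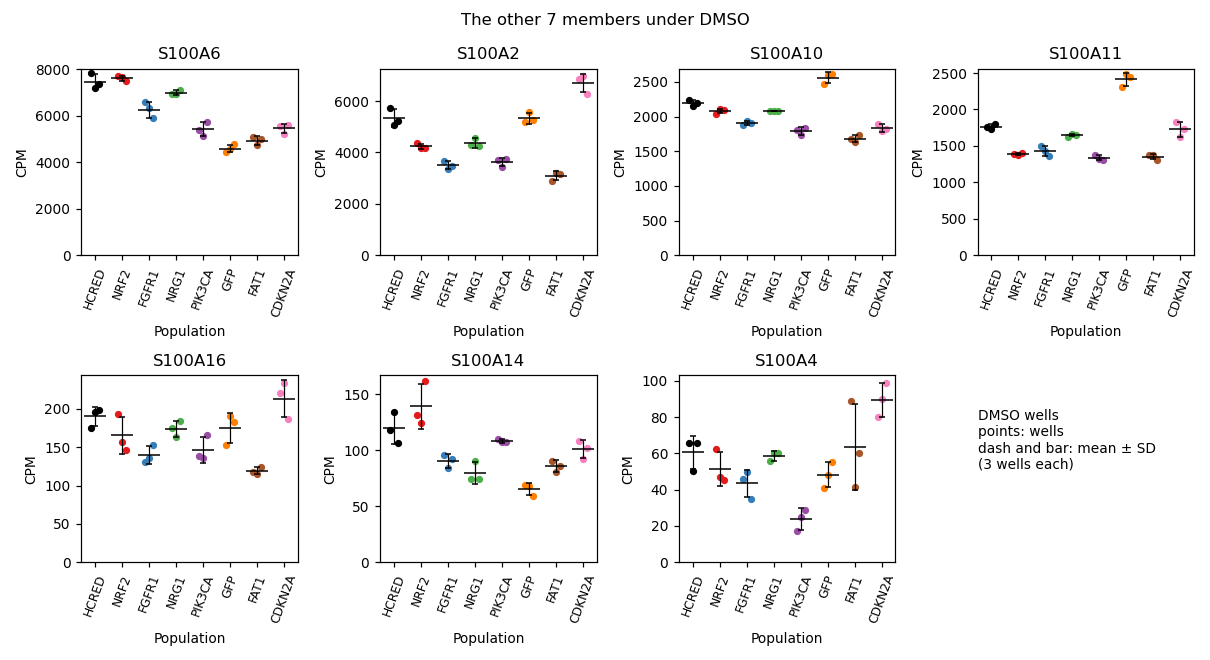
CPM of the 7 other members (S100A2, S100A4, S100A6, S100A10, S100A11, S100A14 and S100A16) in DMSO wells of 8 populations, on axes that start at 0, with a point per well and the mean ± SD of 3 wells. S100A10 and S100A11 peak in GFP cells, S100A2 and S100A4 in CDKN2A cells, and PIK3CA cells are lowest for S100A4.

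Whether the differences between populations were present in other wells was asked in the wells exposed to chemicals, with limma-voom and adjustment over all genes. S100A8 and S100A9 were left out of these tests because the list was built on them. S100A7 passed the filter on low counts only through HcRed and NRF2 wells, so it is counted apart. In PIK3CA cells 5 of the other 7 members were lower than in HcRed cells under CSC and NNK, and none was higher, against 8.16% of all genes called (4.49% higher and 3.66% lower). S100A4 had a log2 difference of -1.39 (SE 0.13, adjusted p = 1.9e-12), S100A6 by -0.55 (SE 0.02, adjusted p = 1.27e-31) and S100A2 by -0.55 (SE 0.03, adjusted p = 8.03e-25). S100A11 (-0.23) and S100A10 (-0.17) fell less, while S100A14 (-0.05) and S100A16 (-0.20, adjusted p = 0.116) did not pass. S100A10 lost its call in a single fit over all groups (adjusted p = 0.117). S100A16 was called with library totals only (adjusted p = 0.0336), over all wells with the 2-digit ones included (0.0119), and without HcRed CSC replicate 1 (0.0477) or PIK3CA CSC replicate 1 (0.0246). Of the basal airway markers, 5 of 7 were lower in PIK3CA than in HcRed cells, against the 3.66% of all genes, and the part of this in the members' values was not tested.

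NRF2 cells differed from HcRed cells in 5 of the 7 members, 4 lower and 1 higher, against 6.53% of all genes (3.62% higher and 2.91% lower). S100A4 had a log2 difference of -0.74 (SE 0.12, adjusted p = 1.83e-05), S100A11 by -0.28 and S100A2 by -0.26. S100A14 was higher by 0.38 (SE 0.08, adjusted p = 0.000837). NRF2 wells of S100A14 held 171, 133 and 149 CPM under CSC and 157, 187 and 145 CPM under NNK, against 120, 118 and 114 CPM and 114, 133 and 139 CPM in HcRed cells. The call on S100A6 (-0.07, adjusted p = 0.0079) was not made by edgeR (adjusted p = 0.25) or DESeq2 (adjusted p = 0.117), nor by limma in a single fit over all groups (adjusted p = 0.726) or without HcRed CSC replicate 3 (0.0649). S100A10 was called lower with library totals only (-0.10, adjusted p = 0.0162) and over all wells (-0.11, adjusted p = 0.00409).

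FGFR1 cells under NNK had 5 of the 7 members lower than HcRed cells, against 1.57% of all genes (0.681% higher and 0.889% lower). S100A2 changed by -0.68 (SE 0.04, adjusted p = 1.66e-26), S100A6 by -0.43, S100A4 by -0.74 and S100A11 by -0.32. S100A10 (-0.20, adjusted p = 0.0486) lost its call under edgeR, under the replicate block and without HcRed NNK replicate 2 or 3 or FGFR1 NNK replicate 1. Without FGFR1 NNK replicate 1, 3 of the 6 calls including S100A7 remained, since S100A4 (adjusted p = 0.108), S100A10 (0.35) and S100A11 (0.052) no longer passed. A single fit over all groups also lost S100A4 (adjusted p = 0.0897), S100A10 (0.485) and S100A11 (0.141). S100A14 and S100A16 were called lower without FGFR1 NNK replicate 2 (adjusted p = 0.00861 and 0.0289) and over all wells (0.0125 and 2.47e-06).

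In NRG1 cells under NNK none of the 7 members was called by limma, at log2 fold changes between -0.46 and -0.08 and unadjusted p-values from 0.0941 to 0.755, against 0.116% of all genes (0.0178% higher and 0.0981% lower). Without NRG1 NNK replicate 2 the values of the 7 lay between -0.22 and -0.04, and S100A2 passed at -0.10 (adjusted p = 0.00821), with 0.991% of all genes called. Over all wells S100A2 (-0.31) and S100A14 (-0.49) were called. A single fit over all groups called 4 of the 7, S100A2, S100A6, S100A10 and S100A11, with 2.38% of all genes called.

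The controls were compared as well, since they anchor the other comparisons. Exposed GFP cells differed from HcRed cells in 5 of the 7 members, against 16.6% of all genes (8.5% higher and 8.14% lower). S100A14 (-0.63, SE 0.10), S100A6 (-0.62, SE 0.03) and S100A4 (-0.53, SE 0.12) were lower, and S100A11 (0.46, SE 0.03) and S100A10 (0.23, SE 0.03) were higher, with adjusted p-values from 3.42e-24 to 0.00063. S100A2 did not differ by the test (0.00, SE 0.03, adjusted p = 0.968).

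FAT1 cells differed from GFP cells in 6 of the 7 members, although 27.9% of all genes were called there (13.1% higher and 14.8% lower). This was the largest count of the 6 comparisons and came from the largest fit, at 18 wells against 12 or 6. CDKN2A cells entered none of these comparisons. S100A11 had a log2 difference of -0.85 (SE 0.04, adjusted p = 6.02e-30), S100A2 by -0.58, S100A10 by -0.56 and S100A16 by -0.54. S100A14 (0.29, SE 0.08) and S100A6 (0.12, SE 0.03) were higher. S100A7 had too few counts to enter this fit. These calls stood in each fit that left out 1 well, which all gave 6 members.

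S100A7 passed the filter through HcRed wells, which fixed the direction of any call against them, so its counts alone are given. Summed over 3 wells they were 87 under CSC and 55 under NNK in HcRed cells. In the same order they were 2 and 0 in PIK3CA cells and 1 and 3 in GFP cells, and under NNK 5 in FGFR1 and 2 in NRG1 cells.

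**Figure D4:**
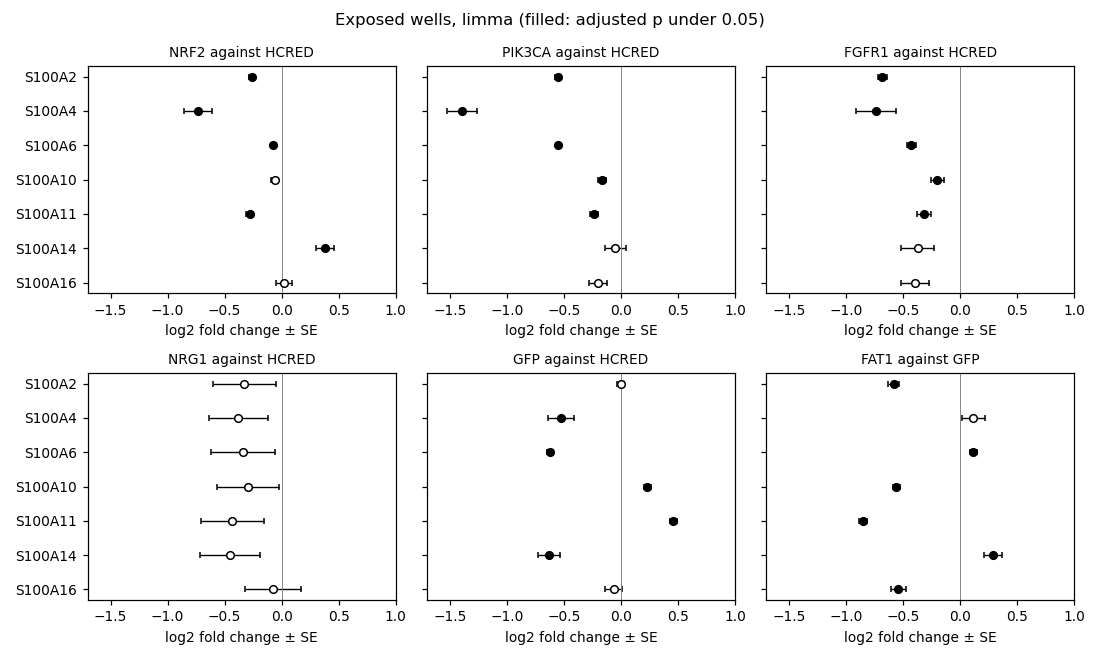
Log2 fold change (x axis, limma, ± SE) of the same 7 members (y axis) in exposed wells for 6 comparisons of populations, with filled points past an adjusted p of 0.05. S100A2, S100A4, S100A6, S100A10 and S100A11 lie left of 0 in PIK3CA and FGFR1 cells, and S100A10 and S100A11 lie right of 0 in GFP and left in FAT1 cells.

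Genes that work beside the S100 proteins were read from fixed lists in the same fits. The epidermal differentiation list held genes of the epidermal differentiation complex, whose locus lies beside the S100 cluster, and genes of the cornified envelope. The list was not limited to that locus. Against HcRed cells, 9 of 11 tested were lower in exposed PIK3CA cells, 8 of 13 in GFP, 6 of 10 in FGFR1 and 4 of 11 in NRG1 cells. In GFP cells 2 of the 13 were higher, and in the others none was. Of those tested, 6, 6, 5 and 3 in that order passed the filter through HcRed wells alone and could differ in 1 direction only, so nothing is read from these counts. FAT1 cells had 5 of 6 lower than GFP cells, all 6 above the filter in FAT1 wells, where 14.8% of all genes were lower. The log2 difference of PI3, which passed in every population, was -2.39 in PIK3CA, -3.98 in GFP, -3.18 in FGFR1 and -3.19 in NRG1 cells (-2.85 without NRG1 NNK replicate 2). In NRF2 cells it was 0.20 (adjusted p = 0.16). PI3 was also the gene nearest to S100A8 in pattern over groups that include these wells, so its values repeat that choice. SPRR genes share sequence with near-identical copies, and their levels are uncertain. Of the basal airway markers, 1 of 7 was lower than in HcRed cells in FGFR1 cells, where 0.889% of all genes were lower, and 1 of 7 in GFP cells, against 8.14%. In NRF2 cells ITGA6 was lower and KRT17 higher of 7, against 2.91% lower and 3.62% higher. In NRG1 cells 2 of 8 were lower, against 0.0981%, and 3 of 7 without NRG1 NNK replicate 2, against 0.406%. FAT1 cells had 4 of 7 lower than GFP cells, against 14.8%. Of the squamous markers 3 of 4 were lower in PIK3CA, 3 of 4 in GFP, 2 of 4 in FGFR1 and 1 of 4 in NRG1 cells. The shares of all genes lower were 3.66%, 8.14%, 0.889% and 0.0981% in that order. In each comparison 2 of the 4 passed the filter through HcRed wells alone, which fixed their direction. They made up 2, 2, 1 and 1 of these calls, so nothing is read from the counts. NRF2 cells had 1 of 4 lower, against 2.91% of all genes, and FAT1 cells had 2 of 2 lower than GFP cells, against 14.8%. The part of either list in the members' values was not tested. Among 14 tested partners and receptors, ANXA1 was higher (0.35) in PIK3CA cells, against 4.49% of all genes, and none was lower. In GFP cells ANXA1 (0.55) and ANXA2 (0.26) were among 5 of 13 that were higher, against 8.5%. There 1 was lower, against 8.14%. In FAT1 cells ANXA2 (-0.64) and ANXA1 (-0.57) were among 6 of 14 that were lower than in GFP cells, against 14.8%. There 2 were higher, against 13.1%. NRF2 cells had 2 of 14 lower, against 2.91%, and FGFR1 cells 2 of 13, against 0.889%, with none higher in either. In NRG1 cells none of 14 was called.

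The responses to the chemicals were compared next, within populations. CSC was tested in HcRed, NRF2, PIK3CA, GFP and FAT1 cells. Of 9 members tested 4 changed, against 5.82% of all genes (2.95% higher and 2.87% lower), with S100A9 and S100A7 higher and S100A10 and S100A2 lower. S100A6 had been seen to rise in HcRed cells, so it was tested in the other 4 populations, where it rose by 0.35 on the log2 scale (SE 0.02, adjusted p = 1.42e-20), against 4.43% of all genes called (2.14% higher and 2.29% lower).

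S100A6 wells under CSC held 6451, 6863 and 6736 CPM in GFP cells against 4446, 4552 and 4770 CPM under DMSO, the largest ratio of the 5 populations at 1.46. In FAT1 cells they held 6474, 6923 and 6865 CPM against 5086, 4727 and 4991 CPM. In PIK3CA cells they held 6352, 6453 and 7047 CPM against 5406, 5122 and 5739 CPM. NRF2 cells had the smallest ratio, 1.18, with wells at 9342, 8779 and 8876 CPM against 7718, 7660 and 7501 CPM. CSC and DMSO wells did not overlap in any of the 5 populations, which held for 0.431% of genes in the upward direction.

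S100A9 rose under CSC by 0.46 on the log2 scale (SE 0.13, adjusted p = 0.0132). HcRed wells held 38.5, 39.1 and 40.3 CPM against 24.0, 25.7 and 23.2 CPM under DMSO, with no overlap. FAT1 wells held 3.59, 5.15 and 5.28 CPM against 2.54, 1.13 and 2.31 CPM. GFP cells had 15 counts in 3 wells under CSC and 3 under DMSO. NRF2 and PIK3CA wells overlapped between CSC and DMSO. S100A9 kept its call in every fit without 1 well, which gave log2 fold changes from 0.42 to 0.56. It was chosen on its levels across populations, these DMSO wells among them. A low DMSO level in GFP cells raises this change and a high level in NRF2 cells lowers it. The part of this choice in the call was not tested. The same DMSO wells enter the tests of S100A8 and S100A9 under BaP and NNK.

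S100A8 did not follow S100A9 over the 5 populations, where its log2 change was 0.04 (SE 0.05, adjusted p = 0.78). S100A7 rose by 0.93 (SE 0.23, adjusted p = 0.00509). HcRed wells of S100A7 held 47.9, 25.6 and 14.9 CPM under CSC, and HcRed was the only population whose CSC wells all lay above DMSO, at 87 counts against 30. NRF2 wells overlapped at a ratio of 1.38, and the counts were 2 against 5 in PIK3CA, 1 against 2 in GFP and 3 against 1 in FAT1 cells. Without HcRed CSC replicate 1, the highest of these, S100A7 no longer passed (0.70, adjusted p = 0.0689), nor did it under DESeq2 (0.82, adjusted p = 0.281), without the filter (0.82, adjusted p = 0.0919), among the most variable genes (adjusted p = 0.0828) or in a single fit over all groups (0.31, adjusted p = 0.755).

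S100A10 fell under CSC by 0.19 on the log2 scale (SE 0.02, adjusted p = 4.84e-10), with all wells below DMSO in 4 of 5 populations. HcRed wells held 1720, 1876 and 1999 CPM against 2232, 2152 and 2200 CPM. S100A2 changed by -0.07 (SE 0.02, adjusted p = 0.0144), a shift that separated the wells in PIK3CA cells alone. It was not called by DESeq2 (adjusted p = 0.0794), without the filter (0.188), among the most variable genes (0.172) or in a single fit over all groups (0.205).

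BaP, a polycyclic hydrocarbon of smoke, was tested in NRF2, NRG1, PIK3CA, GFP and FAT1 cells, and 5 of 10 members changed, against 9.11% of all genes (4.68% higher and 4.43% lower). S100A6 rose by 0.37 on the log2 scale (SE 0.02, adjusted p = 2.8e-26). Its wells lay above DMSO without overlap in all 5 populations, as 0.433% of genes did, at ratios from 1.16 in NRF2 to 1.45 in GFP cells. NRG1 wells held 8713, 9095 and 8757 CPM against 6930, 6960 and 7111 CPM.

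S100A10 was lower by -0.20 (SE 0.02, adjusted p = 3.35e-14) and lay below DMSO without overlap in all 5 populations, as 0.292% of genes did. GFP wells held 2131, 2208 and 2137 CPM against 2466, 2596 and 2617 CPM. S100A11 changed by -0.12 (SE 0.02, adjusted p = 0.00012), S100A16 by -0.16 (SE 0.05, adjusted p = 0.0239) and S100A2 by -0.07 (SE 0.02, adjusted p = 0.00204). The call on S100A2 was not made by DESeq2 (adjusted p = 0.0709), without the filter (0.101), among the most variable genes (0.122) or in a single fit over all groups (0.218), which also did not call S100A11 (0.0693). The call on S100A16 was lost without NRF2 DMSO replicate 1 (adjusted p = 0.0609), NRF2 BaP replicate 1 (0.0515) or FAT1 BaP replicate 3 (0.0544), and without the filter (0.0779), among the most variable genes (0.0814) and in the single fit (0.0512). S100A9 (0.39, adjusted p = 0.075), S100A7 (0.42, adjusted p = 0.437) and S100A8 (0.00, adjusted p = 0.98) did not pass. Without NRF2 DMSO replicate 3 (adjusted p = 0.0319) or NRF2 BaP replicate 1 (0.0308) S100A9 did, as in the single fit (0.79, adjusted p = 0.0143) and over all wells (0.34, adjusted p = 0.0265).

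NNK, a nitrosamine, was tested in 7 populations, and 4 of 10 members rose, with none lower, against 7.22% of all genes called and 3.06% called higher. S100A2 rose by 0.35 on the log2 scale (SE 0.04, adjusted p = 4.29e-09), and by 0.39 (SE 0.03, adjusted p = 8.68e-23) without NRG1 NNK replicate 2, where 5 of the 10 were called, against 19.8% of all genes (9.97% higher). FAT1 wells held 4788, 4570 and 4838 CPM against 2906, 3212 and 3179 CPM under DMSO, the largest ratio at 1.53. HcRed wells held 6142, 6346 and 6361 CPM against 5741, 5063 and 5214 CPM, and NRG1 wells 5715, 5180 and 5730 CPM against 4275, 4579 and 4257 CPM. NNK wells lay above DMSO wells without overlap in all 7 populations, as 0.264% of genes did. The 3 CDKN2A wells under NNK, of which 1 has a 1-digit number, held 10892, 10515 and 9024 CPM, the highest S100A2 values of the 95 wells.

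S100A14 rose under NNK by 0.29 (SE 0.06, adjusted p = 0.00128; 0.33 without that well), with means above DMSO in 7 of 7 populations and no overlap in NRG1, GFP and FAT1 cells. NRG1 wells held 111, 96.3 and 104 CPM against 74.3, 90.8 and 74.3 CPM. S100A6 rose by 0.19 (SE 0.05, adjusted p = 0.00379; 0.24 without that well), and its ratio to DMSO was below those under CSC and BaP in each of the 4 populations with 3 wells of all 3 chemicals, a difference that was not tested. In HcRed cells it held 8951, 8557 and 8692 CPM against 7866, 7217 and 7355 CPM. S100A7 rose by 0.80 (SE 0.21, adjusted p = 0.00807), and by 0.85 without that well. The call was not made in a single fit over all groups (0.29, adjusted p = 0.621), without the filter (adjusted p = 0.0509) or among the most variable genes (0.0807). All NNK wells of S100A7 lay above DMSO in HcRed cells alone, and PIK3CA cells had 0 counts in 3 NNK wells against 1, 2 and 2 under DMSO.

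S100A8 under NNK lay near the threshold, at 0.19 (SE 0.07, adjusted p = 0.0623), with means above DMSO in 6 of 7 populations. It passed under edgeR (0.21, adjusted p = 0.0291), DESeq2 (0.23, adjusted p = 0.00892) and limma with median-ratio factors (0.20, adjusted p = 0.0311). A single fit over all groups (0.25, adjusted p = 0.00593) and all wells (0.22, adjusted p = 0.00717) also called it. Library totals, the other filters and the replicate block did not. It passed without NRG1 NNK replicate 2 (0.15, adjusted p = 0.0116), 1 of 10 such wells among the 42. S100A9 did not pass (0.32, SE 0.13, adjusted p = 0.138; 0.31, adjusted p = 0.0778 without that well), with wells above DMSO in GFP cells alone, but was called in the single fit (0.55, adjusted p = 0.0297) and over all wells (0.40, adjusted p = 0.0213). S100A10 showed no difference by the test (0.00, SE 0.04, adjusted p = 0.995; 0.04, adjusted p = 0.0902 without that well), but was called lower when counts were scaled by library totals only (-0.05, adjusted p = 0.0365). S100A11 did not pass (-0.07, adjusted p = 0.454) although its mean was below DMSO in 7 of 7 populations and all its wells in 4. It was called with library totals only (-0.12, adjusted p = 5.71e-05), and without NRG1 NNK replicate 2 it was at -0.02 (adjusted p = 0.473).

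**Figure D5:**
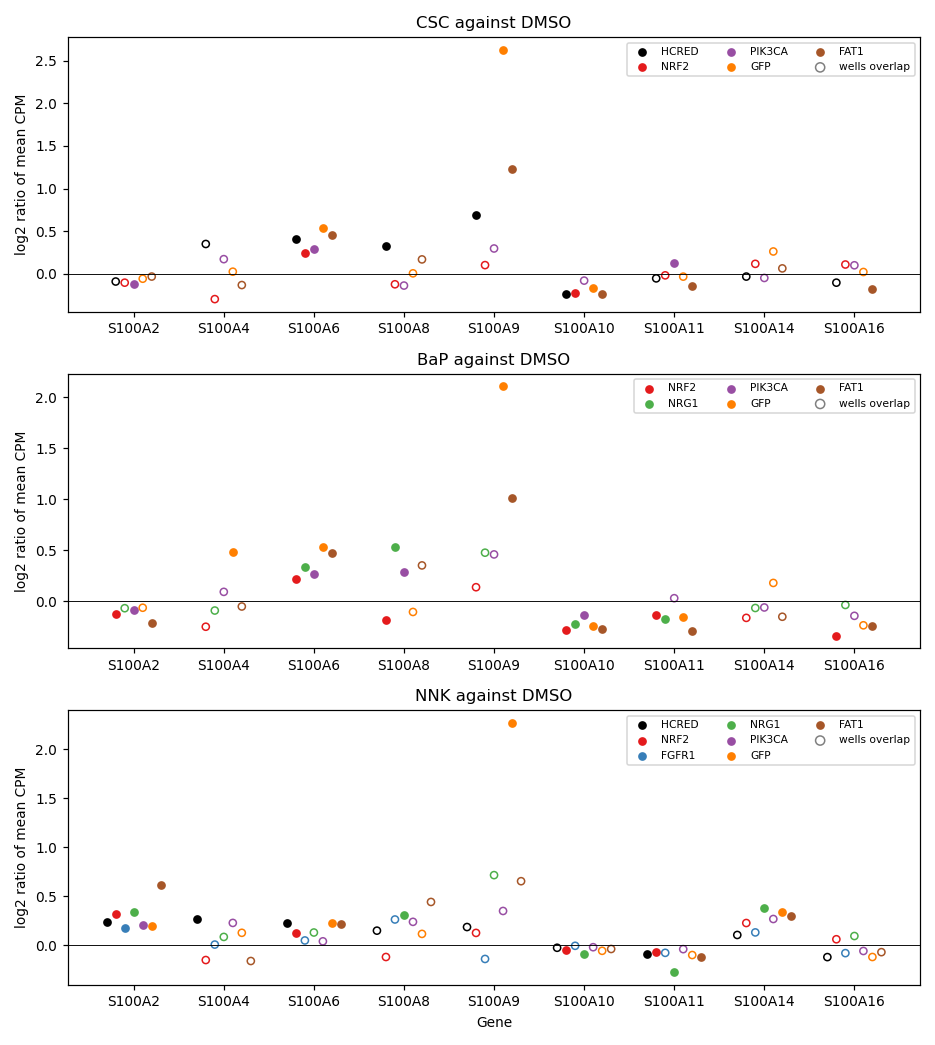
Log2 ratio of mean CPM under CSC, BaP or NNK to DMSO (y axis) for 9 members (x axis; S100A7 is left out because of its low counts) in each population with 3 wells of both, filled where the wells do not overlap. S100A6 is raised in every population under CSC and BaP, S100A2 under NNK, and S100A10 lies below 0 in each population under CSC and BaP. The high S100A9 points of GFP cells rest on 3 counts under DMSO.

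Related genes moved with the chemicals as follows. Of 13 inflammatory epithelial genes tested under CSC, 3 rose and none fell, where 2.95% of all genes rose, with IL1A at a log2 fold change of 1.65 and IL1B at 1.59. Under BaP 4 of 13 rose, against 4.68% of all genes, with IL1A at 1.32. Under NNK 3 of 12 rose, against 3.06%, with IL1A at 0.80, and without NRG1 NNK replicate 2 the count was 4 of 12, against 9.97%, with IL1A at 0.83. S100P rose under CSC by 0.86 (SE 0.15, adjusted p = 1.3e-05). Of 14 partners tested under CSC, CACYBP (0.15) and FABP5 (0.14) rose and 2 fell, ANXA2 (-0.08) among them. Of all genes 2.95% rose and 2.87% fell there. Of the 7 basal airway markers tested, 2 fell under CSC and 3 under BaP, against 2.87% and 4.43% of all genes, and none rose. Under NNK 3 fell and KRT17 rose (0.21, adjusted p = 0.0194), against 4.16% of all genes lower and 3.06% higher. These counts were the same without NRG1 NNK replicate 2 (KRT17 at 0.25), against 9.8% lower and 9.97% higher. KRT14 and KRT5 were among those that fell under each chemical, KRT14 by 0.87 in the CSC fit, by 0.96 in the BaP fit and by 0.36 in the NNK fit (0.34 without that well). The part of these in the members' values was not tested. In these bulk wells fewer cells of a kind and less RNA per cell cannot be told apart.

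Finally, the response to CSC was compared between NRF2 and HcRed cells, the study's 2 by 2 design, by an interaction term. S100A8 was the only one of 9 members tested that passed, at -0.48 (SE 0.09, adjusted p = 0.0015), against 0.231% of all genes (0.0178% higher and 0.213% lower). S100A8 was chosen on its levels across populations, these DMSO wells among them, where NRF2 cells were highest. A high DMSO level in NRF2 cells lowers this term, so no conclusion is drawn from the call. In HcRed cells S100A8 held 1063, 797 and 735 CPM under CSC against 727, 694 and 647 CPM, above DMSO in all wells. In NRF2 cells it held 925, 790 and 787 CPM against 925, 877 and 924 CPM, and the wells overlapped. The highest value came from the well HcRed CSC replicate 1, without which the difference was -0.37 (adjusted p = 0.0177). DESeq2 (-0.53, adjusted p = 0.112), scaling by library totals only (-0.40, adjusted p = 0.0707) and a single fit over all groups (-0.49, adjusted p = 0.603) did not call it, and edgeR did (-0.50). S100A9 had a difference of -0.66 (SE 0.26, adjusted p = 0.633) and S100A7 of -1.12 (SE 0.51, adjusted p = 0.786), neither past the threshold. S100A6, described only, had ratios of 1.32 in HcRed and 1.18 in NRF2 cells.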

How the data were processed

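The files deposited by the authors hold UMI counts for each well, whole numbers with no normalization. Per the study's methods, the authors received matrices made with BWA aln 0.7.10 on RefSeq transcripts of hg19, with each UMI of a well counted once per gene. No row lacked a gene name. CPM were computed here from the total count of each well, from 692446 to 1895735 in the 1-digit wells, and every member but S100A7 and S100A9 had at least 24 counts in each well. Intervals cover counting error only.

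The members, gene lists, markers and motifs were chosen with earlier results of these data known. Tests used limma-voom (limma 3.58.1) after TMM scaling (edgeR 4.0.16) in R 4.3.3. Each fit held only the groups being compared and the genes whose mean count exceeded 1, and was two-sided, with Benjamini-Hochberg adjustment over all genes and a threshold of 0.05. Population or chemical was a covariate. Variances were shrunk strongly, with prior degrees of freedom from 21.2 to 99.7, so very small p-values rest on the spread shared between genes. The labels do not say which wells were separate cultures, and p-values may measure technical spread. The scripts were tested on simulated counts. Alternatives were edgeR's quasi-likelihood test, DESeq2 1.42.0, other scalings and filters, other sets of wells, a replicate block and leaving out each well. Named genes were the members, up to 3 genes per list and direction with the smallest adjusted p past the threshold, and the 5 genes nearest in pattern to S100A8 and to S100A9. The 13 wells with 2-digit numbers were kept out of the main comparisons. Positions came from GENCODE annotation of hg19, and promoter sequences from a RefSeq table of GRCh38.p14, matched letter for letter to hg19. Protein sequences were not used here.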

Additional observations from a re-analysis of the deposited data

Results flagged for a closer look

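The interaction term for the CSC response of S100A8 in NRF2 against HcRed cells was -0.48 on the log2 scale. Without HcRed CSC replicate 1 it was -0.37. The limma call was not made by DESeq2 (adjusted p = 0.112), with library totals only (0.0707) or in a single fit over all groups (0.603). The term uses DMSO wells on which S100A8 was chosen, so no conclusion is drawn from it.

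In some populations every exposed well moved the opposite way from another population, and these differences were not tested. They were picked over all members, chemicals and pairs of populations. The share of all genes with such opposite moves was not computed, so nothing particular to the members is read from them. S100A11 under CSC was higher in PIK3CA cells (log2 ratio 0.13, wells at 1459, 1484 and 1436 against 1377, 1319 and 1311 CPM) and lower in FAT1 cells (-0.14). S100A8 under BaP was higher in NRG1 cells (0.53, wells at 90.3, 124 and 137 against 82.7, 73.3 and 87.1 CPM) and in PIK3CA cells (0.29), and lower in NRF2 cells (-0.18, wells at 855, 801 and 742 against 925, 877 and 924 CPM).

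Wells with 2-digit numbers, which entered no main comparison, lay above all DMSO wells of their population in several cases, given here as log2 ratios of means. The share of all genes that lay above or below in this way was not computed. The cases are therefore a description, and nothing particular to the members is read from them. In CDKN2A cells under NNK these were S100A2 (0.68), S100A4 (0.23), S100A6 (0.20), S100A7 (1.20, at 2.21 CPM or less), S100A8 (0.22) and S100A14 (0.53). In CDKN2A cells under CSC they were S100A6 (0.34) and S100A8 (0.23). In FGFR1 cells they were S100A6 under BaP (0.29) and CSC (0.27), S100A8 under BaP (0.22) and CSC (0.22), and S100A14 under BaP (0.15). In HcRed cells under BaP they were S100A4 (0.14), S100A6 (0.33), S100A7 (0.77) and S100A9 (0.21). In NRG1 cells under CSC they were S100A6 (0.40), S100A7 (0.72, at 0.71 CPM or less) and S100A8 (0.37). Other wells with 2-digit numbers lay below all DMSO wells. S100A10 did so in 6 of the 6 groups (from -0.25 to -0.09) and S100A11 in 5 of them (from -0.19 to -0.07). So did S100A2 in FGFR1 (-0.20) and NRG1 cells (-0.10) under CSC, S100A4 in NRG1 cells under CSC (-0.19), and S100A16 under BaP in FGFR1 (-0.29) and HcRed cells (-0.26).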

How the results depend on the processing

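The cause of each change below was not tested. Of 2353 alternative values of single members, 2194 held in direction and call, 42 lost a call, 41 gained one and 75 changed sign without a call on either side. S100A10 under NNK alone turned with a call, to -0.048 with library totals only. Under CSC 4 members were called, against 2 by DESeq2, without the filter on low counts and when all groups shared a single fit, and 1 among the 10000 most variable genes. Under BaP 5 were called, against 3 without the filter and in the single fit and 1 among the most variable genes. Members outside the 10000 most variable genes were not tested there, so a lower count in that setting can mean a member was dropped. The single fit gave 3 in place of 6 for FGFR1 cells and 5 in place of 1 for NRG1 cells, where library totals gave 0 and all wells as separate samples 3. In the interaction DESeq2, library totals and the single fit gave 0 in place of 1.

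Counts of members here include S100A7 where it was tested. Without 1 well the members called ran from 3 to 4 under CSC, 4 to 6 under BaP, 4 to 5 under NNK, 4 to 6 in NRF2, 6 to 7 in PIK3CA, 3 to 8 in FGFR1 and 1 to 2 in NRG1 cells, from 1 to 2 in the interaction, and stayed at 6 in GFP and FAT1 cells. The FGFR1 count was 3 without FGFR1 NNK replicate 1, the NRG1 count 2 without NRG1 NNK replicate 2, and the interaction count 2, with S100A2 added, without HcRed DMSO replicate 1. The log2 ratio of NRF2 to FAT1 cells for S100A8 was 5.29, from 5.15 to 5.46 without 1 well and 4.93 over all 1-digit wells of shared chemicals. That of NRF2 to GFP cells for S100A9 was 5.42, from 5.33 to 5.54 without 1 well, but 3.48 over all such wells.

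Replicate numbers showed at most weak pairing of the wells, and weak pairing is not excluded. Of 84 pairs with the same number, 5 had correlated deviations above 0.1 (from -0.083 to 0.13). Mean correlations of exposed and DMSO wells were 0.037 for CSC, 0.017 for BaP and 0.021 for NNK. Of 51 exposed wells, 22 were closest to the DMSO well of their own number, among 3 choices. With a replicate block 85 of 86 values of single members were as before, and S100A10 in FGFR1 cells was -0.20 (adjusted p = 0.0531). Over all genes the block gave 55 calls in place of 26 in the interaction and 20 in place of 13 for NRG1 cells. Over all genes NNK calls were 819 (347 higher), against 2145 without the filter (1671 higher), while DESeq2 gave 495 higher of 818 and library totals 332 of 1039. BaP calls were 1030 (529 higher), with 398 higher of 1120 by library totals, 621 of 1045 by median-ratio factors, 544 among the most variable genes and 1638 over all wells. CSC calls were 662, against 440 in the single fit, 380 among the most variable genes and 1130 over all wells. FGFR1 calls were 166, against 97 by DESeq2, 91 in the single fit, 715 over all wells, 93 without FGFR1 NNK replicate 1 and 226 without FGFR1 NNK replicate 2. NRG1 calls were 13, against 270 in the single fit, 139 over all wells, 7 without HcRed NNK replicate 1 and 105 without NRG1 NNK replicate 2. Interaction calls were 26, against 6 by edgeR and among the most variable genes, 9 by library totals, 0 in the single fit, 16 without NRF2 DMSO replicate 3 and 49 without HcRed DMSO replicate 1. Also beyond 1.5 times, all wells gave 1395 under NNK, the most variable genes 476 in place of 721 for NRF2 cells, library totals 8 for NRG1 cells, and the fit of S100A6 had 505, against 302 among the most variable genes, 313 in the single fit and 928 over all wells. Library totals moved the higher calls to 332 of 733 from 400 of 721 in NRF2, to 389 of 940 from 489 of 888 in PIK3CA and to 1099 of 3070 from 1449 of 3093 in FAT1 cells. With library totals only the median over all genes shifted to 0.151 (log2) for NRG1 against HcRed cells, the only shift above 0.1. S100A7 and S100A9 had few counts in the 6 low populations, so changes in them were hard to detect there.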
